A study of Xenopus laevis with 11 samples.

Results

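Remote p300 sites are the p300 peaks of early Xenopus laevis gastrulae that lay more than 50 kb, edge to edge, from the nearest H3K4me3 peak. They were chosen by position, from the series-wide p300 and H3K4me3 lists of the 18 L and S chromosomes, and numbered 3934 of 23017 p300 sites, or 17.1% (Wilson 95% interval 16.6 to 17.6%). Because the gap to H3K4me3 selected them, that gap is given below as a description and supports nothing. The study carried out chromatin immunoprecipitation followed by sequencing on whole embryos at Nieuwkoop-Faber stage 10.5, the early gastrula, with 35 to 90 embryos fixed together. Of its 11 samples, 4 are used here, 2 replicates of p300 and 2 of H3K4me3, each with its own peak list. The labels name no strain, treatment or dissection, and libraries made from whole embryos pool their cell types. Fewer cells with p300 at a site and less p300 per cell cannot be told apart in such pools.

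The protein p300 is a coactivator that acetylates histones, and its occupancy is widely used to map active enhancers, including those far from any promoter. Trimethylation of histone H3 at lysine 4 (H3K4me3) marks the starts of active and poised genes. At this stage the germ layers are being specified, and developmental genes often have enhancers at long range from the promoter they act on. Xenopus laevis is an allotetraploid whose chromosomes pair up as homeologs, the longer one of a pair named L and the shorter one S, with 9_10 a single fused chromosome.

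The lists give positions and widths only, with no signal, score or p-value, and read depth is unknown. On the L and S chromosomes p300 had 31347 calls in replicate 1 and 54814 in replicate 2, and H3K4me3 had 28926 and 24154. Each of the 23017 p300 and 22191 H3K4me3 series-wide intervals was exactly the intersection of a replicate 1 call with a replicate 2 call. A p300 site in that list was therefore called in both libraries by construction. All sites come from the same 2 libraries per target, which allow no test over samples, and sites are not replicates of the embryos. Differences are given in each library instead, with intervals that cover counting error only. For width, and for the share of calls met in the other library, they are also given over the chromosomes.

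The remote sites had a median gap to H3K4me3 of 95 kb, with quartiles of 67.8 and 156 kb. Of the 3934 sites, 1831 (46.5%) lay more than 100 kb from H3K4me3, 74 more than 500 kb and 8 more than 1 Mb. The sites nearest the inside of the limit were on 2L from 64756475 to 64756617, on 1S from 86550262 to 86550665 and on 6L from 17848029 to 17848150, with gaps of 50017, 50027 and 50048 bp. Just outside it were sites on 2L from 176555375 to 176555537, on 4S from 22435157 to 22435368 and on 7L from 120089698 to 120089852, with gaps of 49979, 49975 and 49958 bp. The limit thus cuts a continuous range of gaps.

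Remote p300 sites were spread thinly over a very large share of the genome. Sequence more than 50 kb from H3K4me3 made up 1253 Mb, 50% of the chromosome spans, and held 3.14 sites per Mb (Poisson 95% interval 3.04 to 3.24), or 1 per 319 kb. Sequence 10 to 50 kb from H3K4me3 held 7.32 per Mb, sequence 1 to 10 kb away 14.2, the first 1 kb 28.8, and H3K4me3 peaks themselves 234. The lengths behind these and all later densities include assembly gaps and sequence to which reads cannot be placed. Their share in each zone was not measured. Both libraries showed the same order of zones. Replicate 1 had 4.67 calls per Mb in remote sequence against 10.1 at 10 to 50 kb and 18.7 at 1 to 10 kb. Replicate 2 had 12.1 calls per Mb in remote sequence against 20.2 and 31.4. The slope was shallower in replicate 2: its density at 10 to 50 kb was 1.67 times that of remote sequence, compared with 2.17 times in replicate 1 and 2.33 times in the series-wide list.

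**Figure D1:**
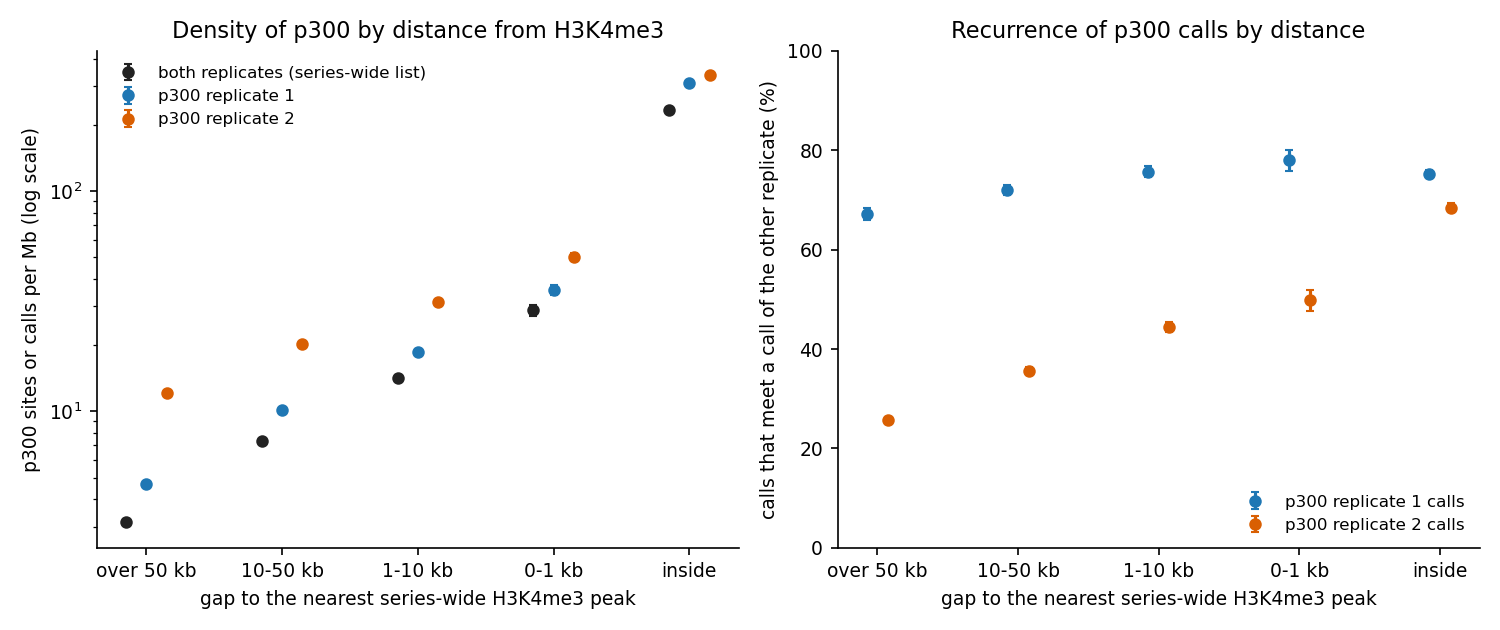
Left, p300 sites (series-wide list) or calls (each replicate) per Mb on a log axis, by the gap to the nearest series-wide H3K4me3 peak; right, the share of each replicate's calls that meet a call of the other replicate. Bars are Poisson (left) and Wilson (right) 95% intervals for counting error. Remote sequence, at the far left, has the lowest density in every list, 3.14, 4.67 and 12.1 per Mb, and the lowest recurrence in both replicates, 67.1% and 25.7%.

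Within the remote sites the density, again over all sequence with assembly gaps included, kept declining with distance. It was 4.44 sites per Mb (4.2 to 4.68) at 50 to 75 kb from H3K4me3, 3.03 (2.82 to 3.25) at 100 to 150 kb and 2.23 (2.01 to 2.46) at 200 to 300 kb. The lowest value was 1.5 per Mb (1.28 to 1.73) at 300 to 500 kb, followed by 1.56 (1.23 to 1.96) beyond 500 kb, where 74 sites fell in 47.3 Mb. Replicate 1 gave 6.33 calls per Mb at 50 to 75 kb and 2.66 at 300 to 500 kb, and replicate 2 gave 15.3 and 8.2. The last 2 distance classes overlapped within counting error in all 3 lists.

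**Figure D2:**
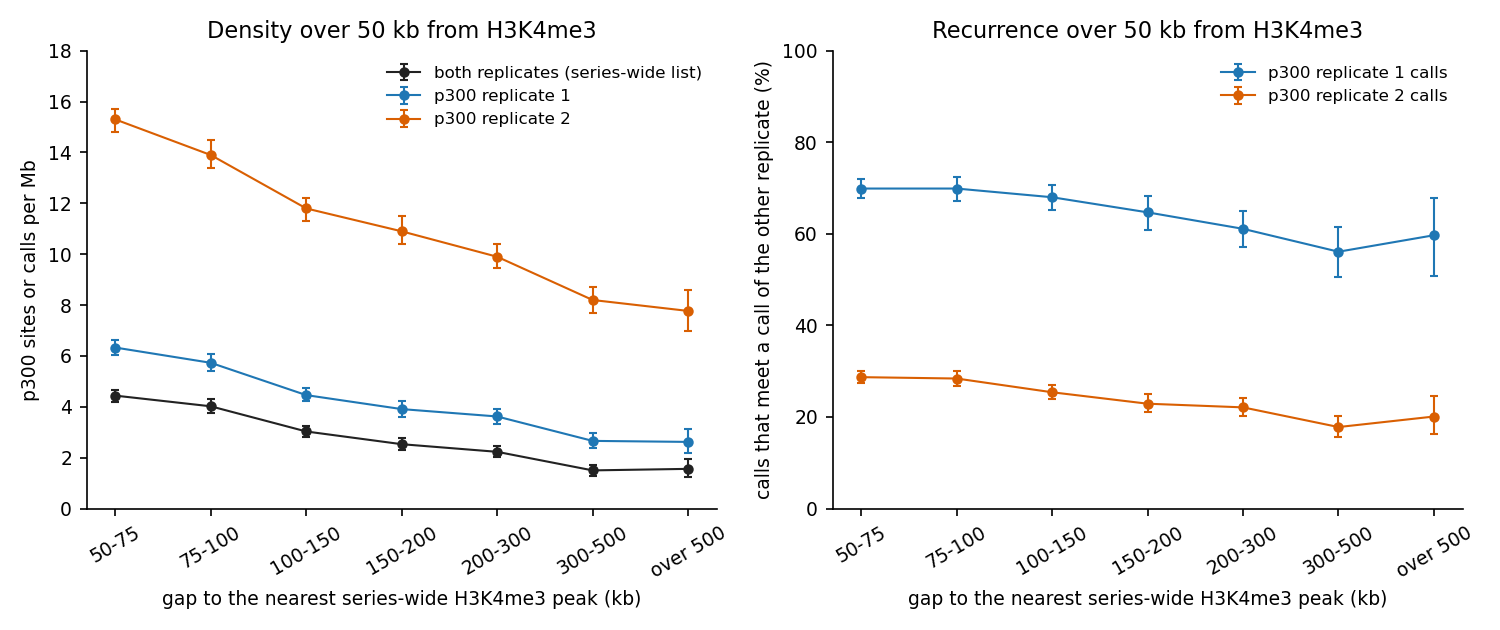
Left, sites or calls per Mb, and right, the share of each replicate's calls that meet a call of the other replicate, by gap to H3K4me3 in 7 classes from 50 kb outward. Bars are Poisson (left) and Wilson (right) 95% intervals for counting error. Series-wide density is 4.44 per Mb in the nearest class and 1.5 and 1.56 in the last 2. Recurrence in replicates 1 and 2 is lowest at 300 to 500 kb, at 56.1% and 17.8%. Beyond 500 kb it is 59.7% (50.9 to 67.9%) and 20.1% (16.3 to 24.5%).

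Remote calls were less often found again in the other library. Since every series-wide site recurs by construction, recurrence was counted over all calls of each replicate that lay over 50 kb from H3K4me3. In replicate 1, 3928 of 5856 remote calls, or 67.1% (65.9 to 68.3%), met a replicate 2 call, compared with 18972 of 25491 other calls, or 74.4% (73.9 to 75%). The share over all replicate 1 calls was 73.1%. In replicate 2, 3884 of 15137 remote calls, or 25.7% (25 to 26.4%), met a replicate 1 call, compared with 18591 of 39677 other calls, or 46.9% (46.4 to 47.3%), and 41% of all its calls. The remote share was the lower in 18 of 18 chromosomes in each replicate. The differences, remote minus other, ran from -13.6 to -1.6 percentage points in replicate 1 and from -26.4 to -16.3 in replicate 2. Calls in the neighbouring zone, 10 to 50 kb from H3K4me3, lay between remote and other calls, with 72% recurring in replicate 1 and 35.5% in replicate 2.

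The 2 libraries thus held very different numbers of remote calls. Replicate 2 had 15137, 27.6% of its list, and replicate 1 had 5856, 18.7% of its list. The recurrence counts above, read the other way, make calls present in a single library remote more often than calls that recurred. The direction follows from those counts and is not a further result. In replicate 2 this was 34.8% of 32339 calls found there alone (34.3 to 35.3%) against 17.3% of its recurring calls (16.8 to 17.8%). In replicate 1 it was 22.8% of 8447 (21.9 to 23.7%) against 17.2% (16.7 to 17.6%). The number of remote calls, and less so their share, therefore depended on the library, and the series-wide 3934 sites are the part on which both libraries met.

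Width moved with recurrence and with distance, so recurrence was also compared within classes of width, an alternative chosen after the data had been seen. The calls of each replicate were split by width into 4 classes of about equal number. The widest classes ran up to 2082 bp in replicate 1 and 2374 bp in replicate 2. Widths of remote and other calls were not compared within a class, so width was matched in part only. In the widest class of replicate 2, 335 bp and over, 54.5% of remote calls recurred, compared with 78% of others. In the widest class of replicate 1, 295 bp and over, the shares were 80.8% and 92.9%. Calls 10 to 50 kb from H3K4me3 in these widest classes had 66.9% in replicate 2 and 89.9% in replicate 1. In percentage points, the difference between remote and other calls was smaller among narrow calls, whose shares were lower in both sets. This order holds for differences and was not read as one of ratios. In the narrowest class of replicate 2, up to 205 bp, 11.9% of remote and 22.1% of other calls recurred. In the narrowest class of replicate 1, up to 167 bp, the order turned round, with 57.9% of remote and 53.4% of other calls recurring. By zone, the other calls of this class had 55.2% at 10 to 50 kb, 56.9% at 1 to 10 kb, 54.9% within 1 kb and 47.6% inside H3K4me3. Remote calls were thus near the zones outside H3K4me3, and the lowest share was inside it.

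Remote sites were narrower than other p300 sites. Their median width was 190 bp (quartiles 155 and 252 bp), compared with 221 bp (168 and 304 bp) for the 19083 other sites. The medians fell from zone to zone, from 244 bp inside H3K4me3 to 222 bp within 1 kb, 215 bp at 1 to 10 kb and 204 bp at 10 to 50 kb. A site counted as inside on an overlap of 1 bp, which wider sites meet more easily, and 6928 of the other sites were inside. The part of this rule in the widths was not tested. In the full replicate 1 calls behind the sites the medians were 204 bp for remote and 244 bp for other sites, and in the replicate 2 calls 300 and 327 bp. For sites 10 to 50 kb from H3K4me3 they were 221 bp in replicate 1 calls and 311 bp in replicate 2 calls. All 18 chromosomes had the lower median in remote sites. The differences, remote minus other, ran from -44 to -18 bp in the series-wide list, from -52 to -27 bp in replicate 1 calls and from -49 to -4 bp in replicate 2 calls. The quartile ranges of remote and other sites overlapped widely. Where the 2 libraries met, call centres were a median of 27.5 bp apart at remote sites, compared with 30 bp at other sites. The replicates shared a median of 66.7% of the bases they covered, compared with 69.2%. Both measures leave out calls that did not recur, and narrower calls that overlap must have closer centres. They therefore cannot show whether the libraries place remote calls as closely as others.

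**Figure D3:**
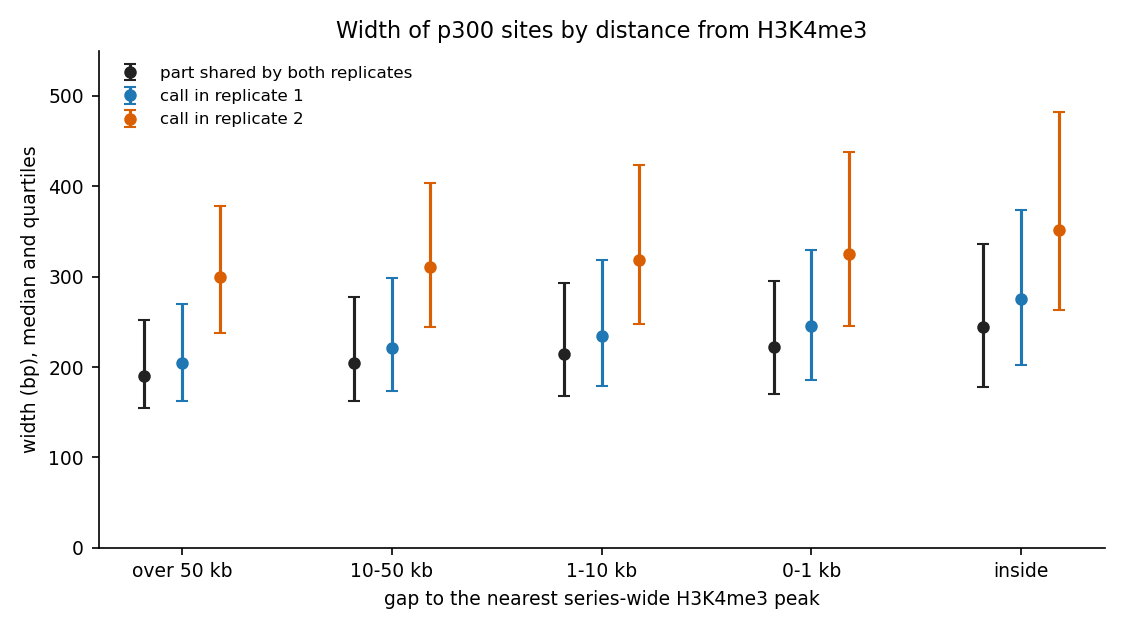
Median width in bp, with quartiles as bars, of p300 sites by the gap to the nearest series-wide H3K4me3 peak, for the part shared by both replicates and for the full call in each. Medians are lowest in remote sites, at 190, 204 and 300 bp, and highest inside H3K4me3, at 244, 275 and 352 bp, and the quartile ranges overlap between neighbouring zones.

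The widest remote sites were several times the usual width in both libraries. The first was on 8S from 38609219 to 38610079, 861 bp wide, where replicate 1 had called 861 bp and replicate 2 had called 1229 bp. Those next in width were on 8L from 4449806 to 4450639 (834 bp, calls of 834 and 850 bp), on 7L from 113335849 to 113336667 (819 bp, calls of 900 and 862 bp), on 8S from 54726964 to 54727778 (815 bp, calls of 837 and 918 bp) and on 8L from 3577977 to 3578788 (812 bp, calls of 812 and 1056 bp). Ranked by the narrower of the 2 calls, the site on 7L came first, followed by those on 8S that start at 38609219 and 54726964. Gaps to H3K4me3 at these 5 sites were 51.7 to 101 kb, so none was among the most distant. The site on 8S that starts at 54726964 lay on an H3K4me3 call of replicate 1 alone.

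The most distant site, with a gap of 1575 kb, lay on 4L, from 144049680 to 144049833. It was 154 bp wide, had H3K4me3 on its left side only and had no other p300 site within 1480.3 kb. The other 4 of the 5 largest gaps, from 1071 to 1201 kb, all belonged to a single stretch of 8L. They ran from 32224666 to 32224858, from 32281187 to 32281438, from 32418055 to 32418159 and from 32504978 to 32505170, with widths of 193, 252, 105 and 193 bp. None of the 5 lay on an H3K4me3 call of either replicate alone.

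Some remote sites did coincide with H3K4me3 called in 1 library. Such calls are not in the series-wide list, so the choice of sites did not use them. Of the 3934 sites, 287 (7.3%, 6.52 to 8.15%) overlapped an H3K4me3 call of replicate 1 alone and 12 (0.305%, 0.175 to 0.532%) one of replicate 2 alone. For all 16089 p300 sites outside the series-wide H3K4me3 peaks the shares were 10.2% and 0.677%, so remote sites were below both. On calls of replicate 1 alone, sites 10 to 50 kb from series-wide H3K4me3 had 9.47% and sites 1 to 10 kb away 15.8%. Sites within the first 1 kb had 2.58% (1.84 to 3.63%). That value is held down by definition, since a replicate 1 call that reaches out from a series-wide peak also met replicate 2. The shares were therefore not read as a trend with distance up to the peak. Within 50 kb, 36.3% of remote sites (34.8 to 37.8%) had a single-replicate H3K4me3 call, compared with 56.6% of sites 10 to 50 kb from series-wide H3K4me3, 58.1% of all other p300 sites and 54.4% of p300 sites as a whole. Measured from every H3K4me3 call of either library, 2495 of the 3934 sites (63.4%) remained over 50 kb away, compared with 2670 when measured from replicate 1 calls and 3642 when measured from replicate 2 calls.

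The 2 H3K4me3 libraries differed in this respect. Replicate 1 had 2019 calls of its own in remote sequence, with a median width of 342 bp, and 266 of them, or 13.2% (11.8 to 14.7%), met a series-wide p300 site, compared with 23% (21.9 to 24.2%) of its 5392 other such calls. Replicate 2 had 666, with a median of 266 bp, and 12 of them, or 1.8% (1.03 to 3.12%), did, compared with 6.92% (5.69 to 8.39%) of its 1373 others. In remote sequence, replicate 1 calls that met p300 had a median width of 488 bp, against 327 bp for those that did not. In replicate 2 the order was the other way, 238 bp for the 12 calls that met p300 against 268 bp. The 287 remote p300 sites on such calls were also wider, with a median of 248 bp (quartiles 184 and 340.5 bp), than the 3635 sites on neither, at 187 bp (154 and 244 bp). Their full p300 calls were wider in both libraries, with medians of 278 and 334 bp compared with 200 and 297 bp. Among these 287 sites, 40.4% had another p300 site within 10 kb, compared with 28.5% of the sites on neither. Wider intervals meet an overlap of 1 bp more easily, so the overlap rule itself favours wider p300 sites and wider H3K4me3 calls. Its part in these width differences was not tested. Both H3K4me3 libraries were made with the same antibody lot, per the labels, and the part of read depth in their difference was not tested.

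Most remote sites stood alone, and a minority lay in groups. Another series-wide p300 site lay within 10 kb of 1153 remote sites, or 29.3% (27.9 to 30.8%), compared with 59.4% of other sites and 54.3% of all sites. For sites 10 to 50 kb from H3K4me3 the share was 45.1%. The density of sites was lower in remote sequence too, and its part in these shares was not tested. The median gap to the nearest p300 site was 43.2 kb in remote sites (quartiles 6.92 and 117 kb) and 5.46 kb in other sites (1.23 and 26.8 kb). Among all replicate 1 calls, 31.8% of remote calls had a neighbour within 10 kb, against 62.3% of other calls, and among all replicate 2 calls 34.7% against 63.6%. Remote sites with such a neighbour had a median width of 211 bp, those with none 183 bp, and the order was the same in the calls of replicate 1 (227 and 195 bp) and replicate 2 (333 and 291 bp).

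Chained by gaps of at most 10 kb, the 3934 sites formed 3274 groups, of which 2822 were single sites, 327 held 2 sites and 78 held 3. There were 24 groups of 5 or more, with 132 sites in all (3.36%). The largest lay on 8S from 38593948 to 38610379, with 8 sites over 16.4 kb, and holds the widest remote site. Its sites were 338, 143, 443, 294, 208, 523, 861 and 220 bp wide from left to right. Replicate 1 had 8 calls there and replicate 2 had 6, since the first pair of sites and the last pair each lay in a single replicate 2 call, of 823 and 1229 bp. H3K4me3 replicate 1 had 2 calls in this stretch and replicate 2 had 0.

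The next groups in number of sites had 7 each. On 8L from 11776272 to 11792306 the 7 sites were 187 to 542 bp wide and came from 7 calls in replicate 1 but 5 in replicate 2, where a single call of 1355 bp spanned the first 3. On 9_10S from 9320829 to 9343214 both libraries had 7 calls centred in the group, and the sites were 169 to 490 bp wide. In replicate 2 these calls include a call of 169 bp that met none of the sites. The replicate 2 call of 763 bp behind the last site was centred just past the group and is not among them. No H3K4me3 call of either replicate was centred in these 2 groups. There were 5 groups of 6 sites, and the 2 with the shortest spans are named here. They lay on 1L from 12795940 to 12804886, within 8.95 kb, and on 1S from 123196079 to 123209701, within 13.6 kb. Each held 1 H3K4me3 call of replicate 1 and 0 of replicate 2. The 5 groups named in this and the previous paragraph lay 53.9 to 73.6 kb from series-wide H3K4me3 at their nearest site.

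Remote sites were unevenly spread over the H3K4me3-free intervals that can hold them, the stretches between neighbouring series-wide H3K4me3 peaks or, in 14 cases, between such a peak and a chromosome end. There were 7018 intervals with sequence over 50 kb from H3K4me3, and 2111 of them (30.1%) held a remote site. Of these, 1257 held 1, 734 held 2 to 4 and 120 held 5 or more, and those 120 contained 833 sites, 21.2% of all. With the intervals split by length into 5 classes of about equal number, 6.55% of the shortest (71.5 to 129 kb) and 60.3% of the longest (over 380.2 kb) held a site. The shortest class had 19.2 Mb of remote sequence in which a site could lie, and the longest had 757 Mb. Per Mb of remote sequence the order was the reverse, with 6 sites in the shortest class and 2.56 in the longest. Between peaks of the shortest class, remote sequence lies near the 50 kb limit, where density was highest. The part of distance in this order was not tested.

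The 2 intervals with the most remote sites were on homeologous chromosomes. On 6S an interval of 775 kb, from 118782311 to 119556945, held 22 sites, and on 6L one of 685 kb, from 143267696 to 143952897, held 18. Their midpoints lay at 92.8% and 92.6% of the span of 6S and 6L. Whether they are homeologous stretches was not tested, as no alignment was used. On 6S, 19 of the 22 sites lay between 51.0 and 263.6 kb from the left edge, followed by sites at 325.9, 600.2 and 625.2 kb. On 6L, 17 of the 18 lay between 54.0 and 285.3 kb, and the last at 529.4 kb. Sites were thus packed toward the left of both intervals, with 3 on 6S beyond 263.6 kb and 1 on 6L beyond 285.3 kb. The widest sites were 623 and 537 bp on 6S and 608 and 427 bp on 6L. Replicate 1 had 27 p300 calls in the 6S interval and 25 in the 6L interval, and replicate 2 had 35 and 30. H3K4me3 replicate 1 made 4 calls within the 6S interval and 5 within the 6L interval, and replicate 2 made 0 in both.

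The other 3 intervals rich in remote sites differed in shape. On 8L from 20339589 to 20739912, 15 sites lay between 194.3 and 345.5 kb from the left edge of a 400.3 kb interval, a density of 49.9 sites per Mb of remote sequence. On 3L from 110814168 to 112843463, an interval of 2029 kb, 8 of 13 sites lay between 61.7 and 113.8 kb and the other 5 were scattered up to 1961.3 kb, for 6.74 per Mb. On 9_10S from 9176037 to 9416785, 12 sites within 241 kb gave 85.3 per Mb, and this interval holds the 9_10S group described above.

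**Figure D4:**
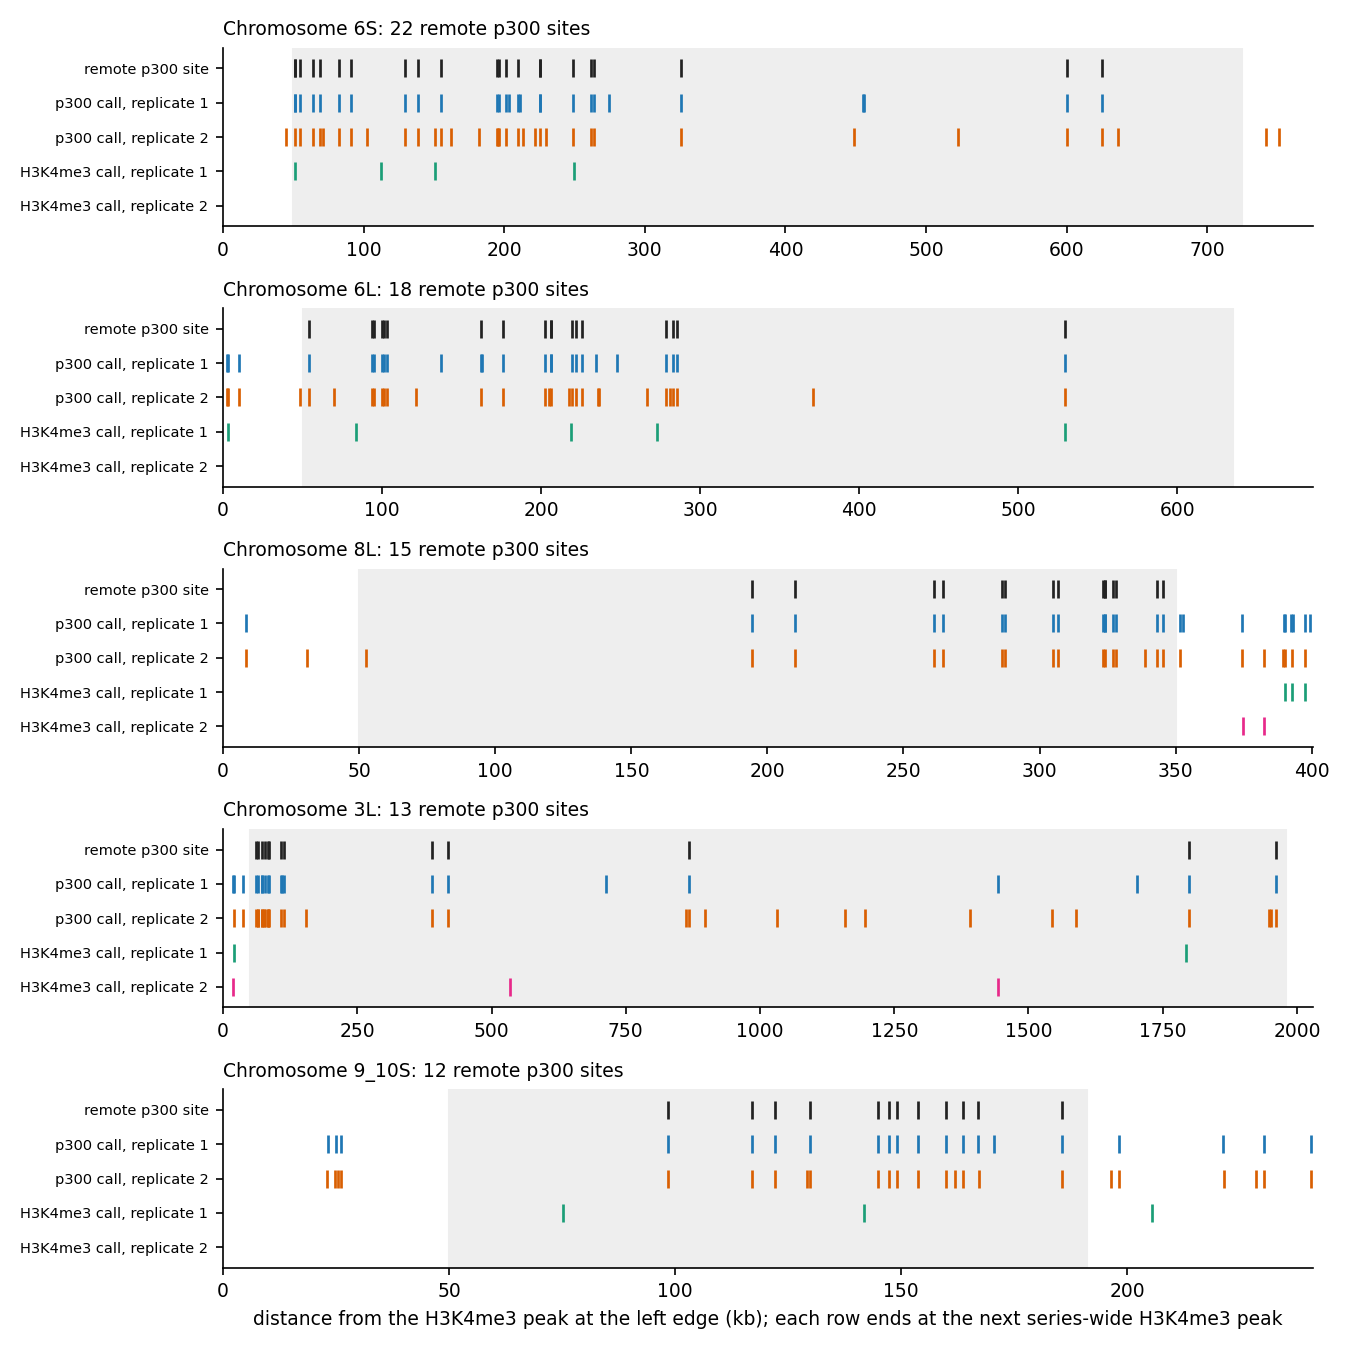
Centres of remote p300 sites, of p300 calls and of H3K4me3 calls in each replicate, as ticks, along the 5 H3K4me3-free intervals with the most remote sites; the horizontal axis is the distance in kb from the H3K4me3 peak at the left edge, and grey marks sequence over 50 kb from series-wide H3K4me3. The 6S and 6L intervals have 19 of 22 and 17 of 18 sites up to 263.6 and 285.3 kb from the left edge, with single-replicate H3K4me3 calls from replicate 1 and none from replicate 2.

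Long intervals could also be nearly or wholly free of remote sites. The longest, 3775 kb on 6L from 77638589 to 81413874, held 4, or 1.09 per Mb of remote sequence. The longest with none were on 2L from 38029385 to 39758902 (1729.5 kb), on 5S from 93599310 to 95262380 (1663 kb) and on 2S from 25510337 to 27051293 (1541 kb). The p300 lists of the replicates were not empty there: replicate 1 had 5, 1 and 1 calls in all and replicate 2 had 17, 8 and 12. The 2L interval held 1 series-wide p300 site, which was not remote, and the others held 0. Gaps in the assembly and sequence to which reads cannot be placed are part of these lengths, and their share was not measured.

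Remote sites were more numerous on L chromosomes, roughly as remote sequence was. L had 2158 and S had 1776, with a mean log2 ratio of L over S of 0.27 ± 0.18 (SD over 9 chromosome pairs, above 0 in 9 of 9). Remote sequence itself had a ratio of 0.21 ± 0.13, with 669 Mb on L and 584 Mb on S. Per Mb of remote sequence the ratio was 0.06 ± 0.15 and above 0 in 5 of 9 pairs, with 3.22 sites per Mb on L (3.09 to 3.36) and 3.04 on S (2.9 to 3.19). The excess on L per Mb was thus smaller than its spread over pairs. It was 0.06 ± 0.09 in replicate 1 calls, above 0 in 6 of 9 pairs, and turned to -0.07 ± 0.19 in replicate 2 calls, above 0 in 4 of 9. For other p300 sites the ratio of numbers was 0.48 ± 0.10. Remote sites accordingly made up a smaller part of the p300 sites on L, 16.3% (15.6 to 16.9%), than on S, 18.2% (17.5 to 19%). The difference was negative in 8 of 9 pairs, with a mean of -1.99 ± 2.13 percentage points, and pair 5 was the exception at 0.51. Remote sequence was likewise a smaller part of the chromosome spans on L, 48.9%, than on S, 51.2%. That difference had a mean of -2.17 ± 1.94 percentage points and was above 0 in 2 of 9 pairs.

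Pairs varied widely around these means. Pair 7 had the largest log2 ratio, 0.48, from 220 remote sites in the 64.8 Mb of remote sequence of 7L and 158 in the 45.4 Mb of 7S. In pair 9_10 the numbers were nearly equal, 160 on 9_10L and 159 on 9_10S. The largest difference in share was in pair 6, where remote sites were 18.9% of the p300 sites on 6L and 24.5% on 6S. The library mattered as well. Remote calls of replicate 1 had a mean ratio of 0.26 ± 0.16, above 0 in 8 of 9 pairs. Those of replicate 2 had 0.14 ± 0.18, above 0 in 7 of 9. In pair 8, replicate 2 had 610 remote calls on 8L and 690 on 8S, whereas replicate 1 had 331 and 240 and the series-wide list 208 and 157.

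**Figure D5:**
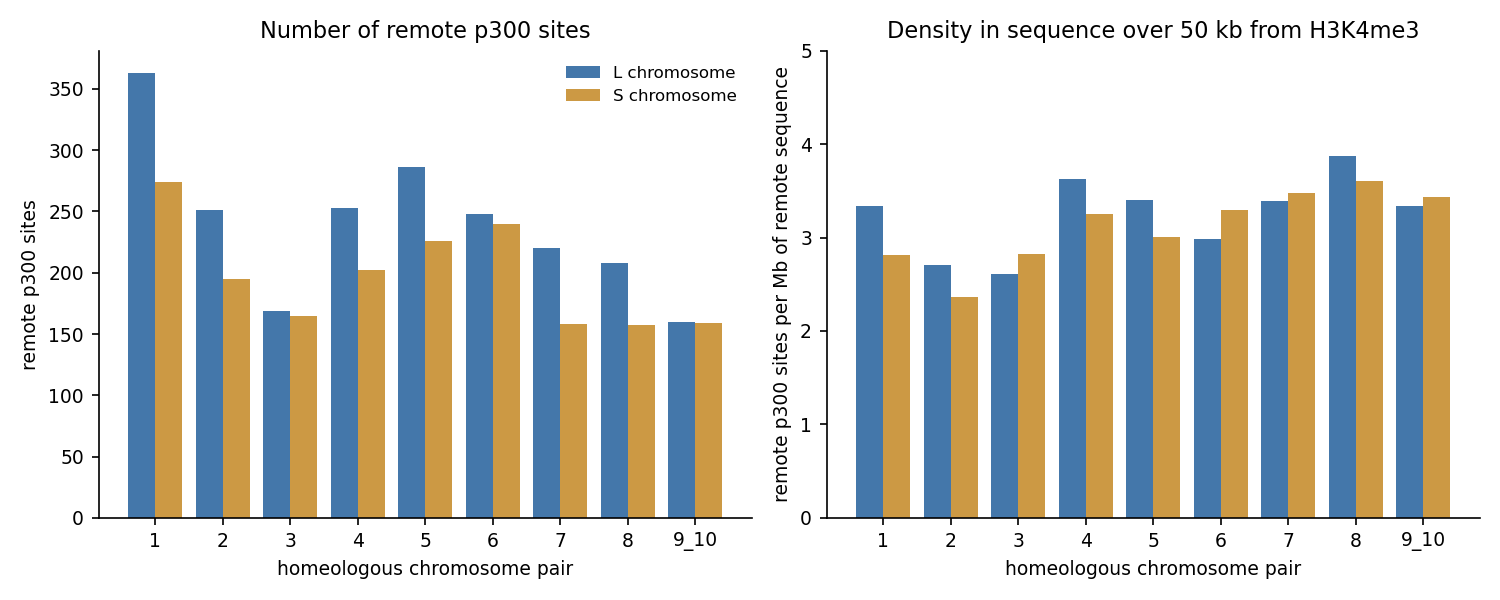
Remote p300 sites of the series-wide list on the L and S chromosome of each homeologous pair, as numbers (left) and per Mb of sequence over 50 kb from H3K4me3 (right). L is higher in number in 9 of 9 pairs but per Mb in 5 of 9, with 3.87 sites per Mb on 8L at the top and 2.36 on 2S at the bottom.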

How the data were processed

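The authors deposited peak lists with no header, as start and end positions in bp. The submitters' processing notes name MACS2 2.1.0.20140616, a peak caller, BWA 0.7.10-r789, an aligner, and bedtools. The build, the calling threshold and the control behind each list are not stated in these sources, and depth is unknown. The 4 p300 and H3K4me3 samples were grouped by the target and replicate number in their titles. The other 7 samples were not analysed here. Nothing states that replicates came from separate clutches, so their spread may be technical. Peaks on scaffolds (1993 series-wide p300) were left out.

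Gaps, overlaps of at least 1 bp, zone lengths and intervals were computed with Python 3.11.15, numpy 2.4.6, pandas 2.3.3 and scipy 1.17.1, checked on simulated lists against base-by-base answers. A chromosome's span was taken up to its last peak of any kind, a lower bound of its length. Positions are 1-based and follow the build the lists use, which is unnamed. The gene table at hand is of another assembly (7038 genes lie beyond the last peak), so no gene names, sequences or motifs were analysed. Named regions are the 5 largest gaps, the 5 widest sites, the 3 widest in both replicates, the 3 nearest each side of the limit, the 5 largest groups, the 5 intervals with most sites and the 3 longest with none. Groups with equal numbers of sites were ranked by the shorter span. The longest interval of all was added after its values were seen. Sites, classes and regions were chosen with earlier results of these data known. Alternatives were other gap limits, gap measures, H3K4me3 and p300 lists, overlap rules and neighbour distances.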

Additional observations from a re-analysis of the deposited data

How the results depend on the processing

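The 3934 remote sites, 17.1% of p300 sites, became 6615 (28.7%) with a limit of 25 kb, 1831 (7.95%) with 100 kb and 2495 with the union of the H3K4me3 replicates. With a library left out, the number ranged from 2670 (H3K4me3 replicate 1 alone) to 15137 (p300 replicate 2 alone) and the share from 11.6% to 27.6%. The median width difference, remote minus other, was -31 bp and -37 to -17 bp with a library left out. The density of 3.14 per Mb ranged from 2.5 to 12.1 with a library left out, the highest from p300 replicate 2 alone. The share with a p300 neighbour, 29.3% within 10 kb, was 22.3% within 5 kb, 41.5% within 25 kb and 31.8% to 34.7% in the p300 lists of single replicates. The log2 L over S ratio of 0.27 was 0.40 with a limit of 25 kb and 0.14 to 0.26 with a library left out.

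The recurrence difference, remote minus other, was -7.35 percentage points in replicate 1 and -21.2 in replicate 2. With the same number of widest calls from both lists it was -9.17 and -26.1, and with the union of H3K4me3 replicates -23.6 in replicate 2. From the narrowest to the widest of 4 width classes, it was 4.47, -2.8, -8.46 and -12.2 in replicate 1 and -10.2, -14.1, -20.5 and -23.5 in replicate 2, so it reversed among the narrowest replicate 1 calls. Among those narrowest calls, 57.9% of remote calls recurred, compared with 55.2% at 10 to 50 kb and 47.6% inside H3K4me3. The cause was not tested. The 7.6% of remote sites on an H3K4me3 call of a single replicate became 10.6% within 1 kb, 18.6% within 10 kb and 36.3% within 50 kb. Sites 10 to 50 kb from series-wide H3K4me3 had 9.98%, 14%, 26.3% and 56.6%. All p300 sites had 7.61%, 11.1%, 27.9% and 54.4%. The 7.61% includes the 6928 sites inside series-wide H3K4me3, of which 0 overlapped such a call, so it is a low background for remote sites. Centre-to-centre gaps and leaving out intervals under 50 bp moved the number, share, width difference and L over S ratio by less than 1.5 times. No paired analysis was possible because no result comes from a test over samples.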

Other observations

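Remote p300 calls found in replicate 2 alone were unevenly spread over 8S. Per Mb of remote sequence, 8S had 12.4 such calls, compared with 7.61 to 10.4 on the other 17 chromosomes. In the first 25 Mb of 8S, a limit picked after the values were seen, there were 223 of them, or 20.4 per Mb (Poisson 95% interval 17.8 to 23.2), and on the rest of 8S 314, or 9.66 per Mb (8.62 to 10.8). Calls of replicate 1 alone numbered 26 in the first 25 Mb, or 2.38 per Mb (1.55 to 3.48), and 57 on the rest, or 1.75 (1.33 to 2.27). Series-wide remote sites had 3.56 per Mb (2.53 to 4.87) in the first 25 Mb and 3.63 (3 to 4.35) on the rest. The higher density was thus that of replicate 2 calls, while the intervals of the sites called in both libraries overlapped between the stretches. These intervals do not allow for the choice of 8S and of the limit from the same values. Other chromosomes are given as a whole only, so such a stretch cannot be called particular to 8S.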
